A study of Rattus norvegicus with 6 samples.

Results

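The mRNA response of retinal ganglion cells (RGCs), the output neurons of the retina, to thrombospondin 1 (TSP1) was described by setting the 2 arrays of RGCs given TSP1 for 12 h against the 2 arrays of RGCs cultured alone (Alone). These are 4 of the 6 arrays of the series, and the other 2, from RGCs given glypican 4 (Gpc4) for 12 h, were used for the shared spread and for 1 direct comparison. All 31042 probe sets of the rat array were compared, and none was left out. Each probe set combines several short probes to 1 transcript, and some genes are covered by more than 1 probe set. The labels give neurons of postnatal day 6 kept 12 days in growth medium with BDNF and CNTF before the protein was added, and the methods add forskolin to that medium. All 3 conditions share this medium, so Alone cells also received both trophic factors. The neurons came from Sprague Dawley rat pups. They were purified by binding microglia and fibroblasts to lectin dishes and then RGCs to antibody dishes, and FUDR was given against fibroblast growth. The TSP1 was a recombinant protein added to the medium, with no protein added to Alone. Each array carried RNA of 2 pooled wells, and per the methods the experiment was made on 2 separate RGC cultures, so replicate 1 and replicate 2 of each condition are called culture 1 and culture 2.

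TSP1 is a large matrix glycoprotein that astrocytes secrete. It binds the calcium channel subunit α2δ1 on neurons, and other cells bind it through CD47, CD36, integrins and LRP1. It can also release TGF-beta from its latent complex. On cultured RGCs TSP1 is known for promoting synapses that have pre- and postsynaptic structure but lack functional AMPA receptors (AMPARs), called silent synapses. Gpc4, also from astrocytes, is known for bringing AMPARs to synapses.

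Values are log2 RMA expression values, where RMA corrects for background, normalizes the arrays to each other and combines the probes of a set. Where 2 values are given for a condition, culture 1 comes first. The median over all probe sets was 5.96 to 5.99 on each array. Detection calls were not used here, so a value under that level may be background, and a difference that reaches into that range may be too small. Differences were tested with limma on all 6 arrays, two-sided, and the threshold was an adjusted p under 0.05 (Benjamini-Hochberg, over all probe sets). The same fit with the culture as a term is called the replicate block. With 2 arrays against 2, an exact permutation test of 1 value cannot give a two-sided p below 0.333.

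The cells carried the mRNAs of their label. All 11 measured RGC markers lay above the array median in Alone, and 9 lay above a log2 value of 10, from 7.91 for Pou4f1, a POU homeobox factor of RGCs, to 14.0 for Sncg, γ-synuclein. The summed linear value of the RGC markers was 77260 and 75200 in Alone and 76610 and 75370 with TSP1. The RGC markers were therefore at a like level on the 4 arrays, and their differences ran from -0.16 (Thy1) to 0.05 (Nefl) on the log2 scale. Some markers of other cells lay above the array median too. The sum over 35 fibroblast and matrix genes was 8999 and 13050 in Alone and 8022 and 12080 with TSP1. It was higher in culture 2 than in culture 1 under both conditions, and lower with TSP1 than in Alone within each culture. The list includes Thy1, which RGCs also express and which had the highest value of the 35. The sum over 17 microglia and macrophage genes was 925.2 and 608.7 in Alone and 1153 and 649.8 with TSP1, higher in culture 1 under both conditions. Of 12 Müller glia markers 9 lay above the Alone median, of 13 pericyte and smooth muscle markers 7 and of 15 bipolar and amacrine markers 7. Of 12 astrocyte markers 3 did, of 13 endothelial markers 4 and of 14 photoreceptor markers 2. With the brightest probe set of each gene, 9343 of all 14217 genes had a mean of at least 6, close to that median. A count above the median therefore does not by itself show that a cell type was present. In bulk RNA, fewer cells of a type and less RNA per cell cannot be told apart.

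**Figure D1:**
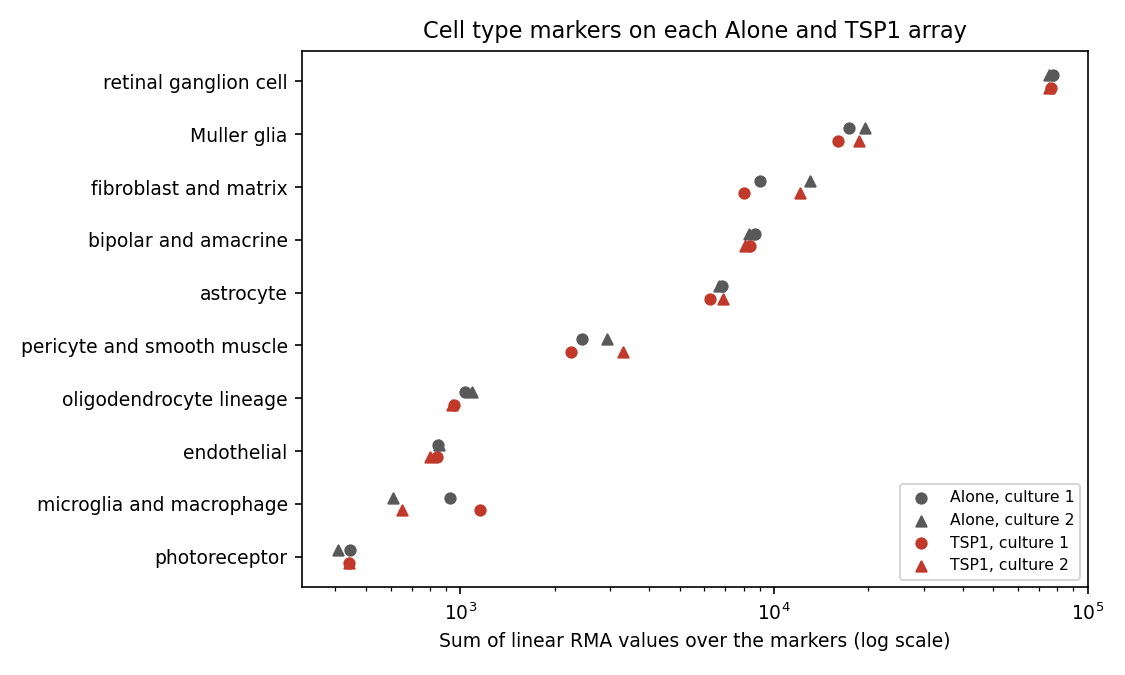
Sum of linear RMA values (x axis, log scale) over the markers of 10 cell types (y axis) on each Alone (grey) and TSP1 (red) array, with circles for culture 1 and triangles for culture 2. The RGC sums lie together near the right, the fibroblast sums run from 8022 to 13050 and split by culture, and the microglia sums run from 608.7 to 1153 and split the other way. Sums compare arrays within a list, not lists with each other.

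The response to TSP1 was small. Without the culture in the model none of the 31042 probe sets passed by limma (0%), with 1367 at an unadjusted p under 0.05 (4.4%), of which 728 were higher and 639 lower with TSP1. The methods' t-test, run on the same values, gave 1280 before adjustment and 0 after it. With the replicate block 4 probe sets passed (0.0129%), and 2078 had an unadjusted p under 0.05 (6.69%). The median size of the difference between TSP1 and Alone was 0.11 on the log2 scale in culture 1 and 0.09 in culture 2. The same measure between the 2 cultures was 0.11 in Alone, 0.11 with TSP1 and 0.10 with Gpc4, and Gpc4 against Alone gave 0.11 in each culture. At least 2-fold differences were found for 26 probe sets in culture 1 (0.0838%) and 35 in culture 2 (0.113%), against 85 between the 2 Alone arrays (0.274%) and 94 between the 2 TSP1 arrays (0.303%). Over all probe sets the differences of culture 1 and culture 2 correlated at r = 0.12, a description across probe sets, which are not independent and which within a culture share their arrays. A difference of at least 2-fold in both cultures and of 1 sign was found for 10 probe sets, 2 higher (Fstl3 and Tnc) and 8 lower. The named ones among the 8 were Inmt, Cebpd, Igf2, Cxcl1, Ifitm3, Dcn and Lum.

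**Figure D2:**
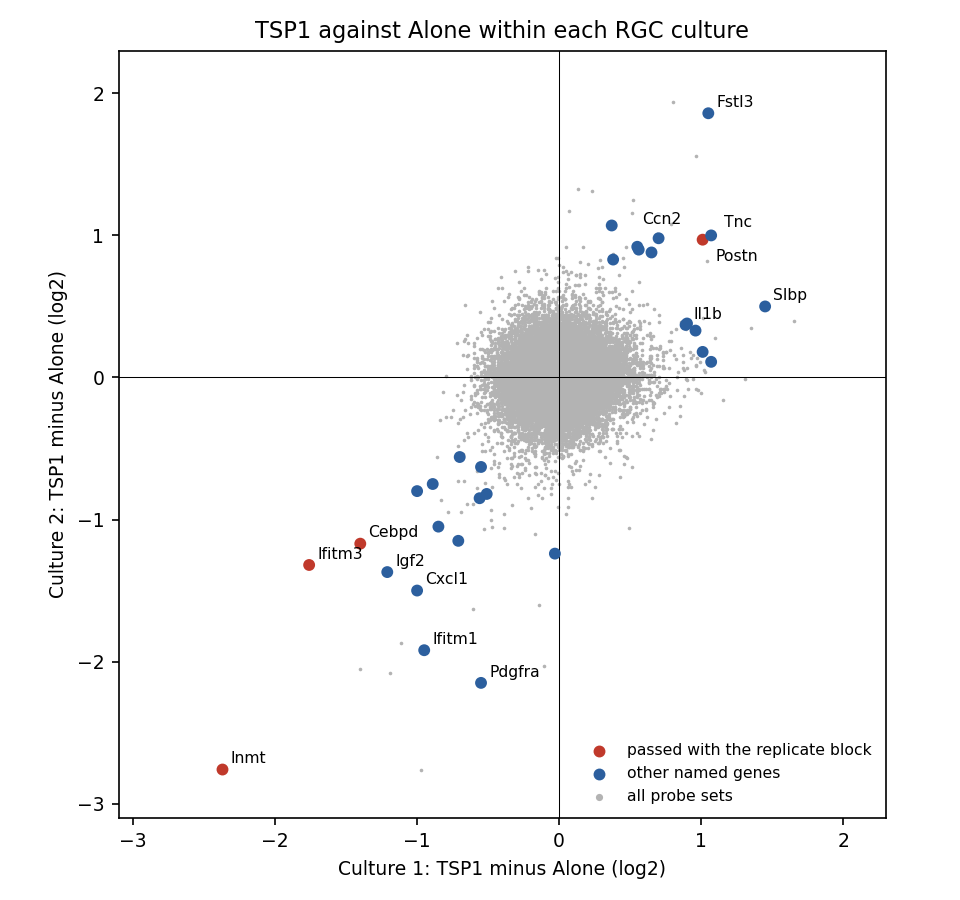
TSP1 minus Alone on the log2 scale in culture 1 (x axis) and culture 2 (y axis) for every probe set (grey), with the named genes in blue and the 4 probe sets that passed with the replicate block in red. Most probe sets form a round cloud about 0, and Inmt lies farthest from it, at -2.37 and -2.76.

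The 4 probe sets that passed with the replicate block belong to Inmt, Ifitm3 and Cebpd, lower with TSP1, and Postn, higher with TSP1. None of the 4 passed without the block (adjusted p = 0.98 from limma for each), and with the block on the 4 Alone and TSP1 arrays by themselves 0 probe sets passed. Inmt encodes indolethylamine N-methyltransferase, which methylates tryptamine and related amines. It read 7.44 and 8.28 in Alone, 5.07 and 5.52 with TSP1, and 7.34 and 8.36 with Gpc4. Both TSP1 arrays lay below the other 4 arrays and below the array median, so the groups did not overlap. The difference was -2.57 (SE 0.37, 95% CI -3.42 to -1.71), a signal 5.92-fold lower, with -2.37 in culture 1 and -2.76 in culture 2. With the replicate block its adjusted p was 0.0029 from limma. Inmt is a gene of the fibroblast and matrix list, whose summed value was also lower with TSP1 in both cultures, by less than that of Inmt (8999 to 8022 and 13050 to 12080).

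Ifitm3 encodes an interferon-induced membrane protein that restricts the entry of enveloped viruses. Its values were 7.63 and 8.78 in Alone, 5.87 and 7.46 with TSP1, and 7.62 and 9.01 with Gpc4. Each TSP1 array lay well below the Alone array of its culture, and also below both Alone arrays, while culture 2 ran above culture 1 in all 3 conditions. The difference was -1.54 (SE 0.62, 95% CI -2.98 to -0.10), with -1.76 in culture 1 and -1.32 in culture 2, and its adjusted p by limma was 0.014 once the culture was in the model. The value moved to -0.97 without Alone replicate 2, to -0.75 without TSP1 replicate 1 and to -2.34 without TSP1 replicate 2, in fits without the block. The related Ifitm1 and Ifitm2 were lower as well. Ifitm1 read 5.53 and 6.63 in Alone and 4.58 and 4.71 with TSP1, and Ifitm2 7.55 and 8.23 in Alone and 6.55 and 7.43 with TSP1. Both TSP1 arrays lay below both Alone arrays for each gene, but neither passed with the block (adjusted p = 0.36 for Ifitm1 and 0.10 for Ifitm2 from limma). The 3 genes are close paralogs, and how far probes of one bind mRNA of another was not tested.

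Cebpd encodes C/EBPδ, a transcription factor of acute phase and differentiation programs. The probe set that passed read 5.53 and 5.86 in Alone, 4.13 and 4.69 with TSP1, and 5.39 and 5.77 with Gpc4. A brighter probe set read 6.20 and 6.54 in Alone, 5.49 and 5.39 with TSP1, and 6.13 and 6.25 with Gpc4. On each of these probe sets both TSP1 arrays were the lowest of the 6. On the probe set that passed, all 6 values lay below the array median, so its level is uncertain. On the brighter one only the TSP1 values did. The differences were -1.29 (SE 0.21, adjusted p = 0.014 from limma with the block) and -0.93 (SE 0.13, adjusted p = 0.10 with the block). A further Cebpd probe set, with a mean of 3.83 over the 6 arrays, read 3.77 and 3.78 in Alone and 3.90 and 3.94 with TSP1, so it had the opposite sign at a level below the median.

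Postn encodes periostin, a secreted matricellular protein that binds integrins and is a target of TGF-beta. It read 7.42 and 8.19 in Alone, 8.43 and 9.16 with TSP1, and 7.62 and 8.24 with Gpc4. The TSP1 array of each culture was the highest of that culture, and both TSP1 arrays lay above both Alone arrays. The difference was 0.99 (SE 0.33, 95% CI 0.23 to 1.75), a 1.99-fold higher signal, with 1.01 in culture 1 and 0.97 in culture 2. Its adjusted p was 0.040 from limma once the replicate block was added, and without the block the value moved to 0.61 without Alone replicate 1 and to 0.63 without TSP1 replicate 2.

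**Figure D3:**
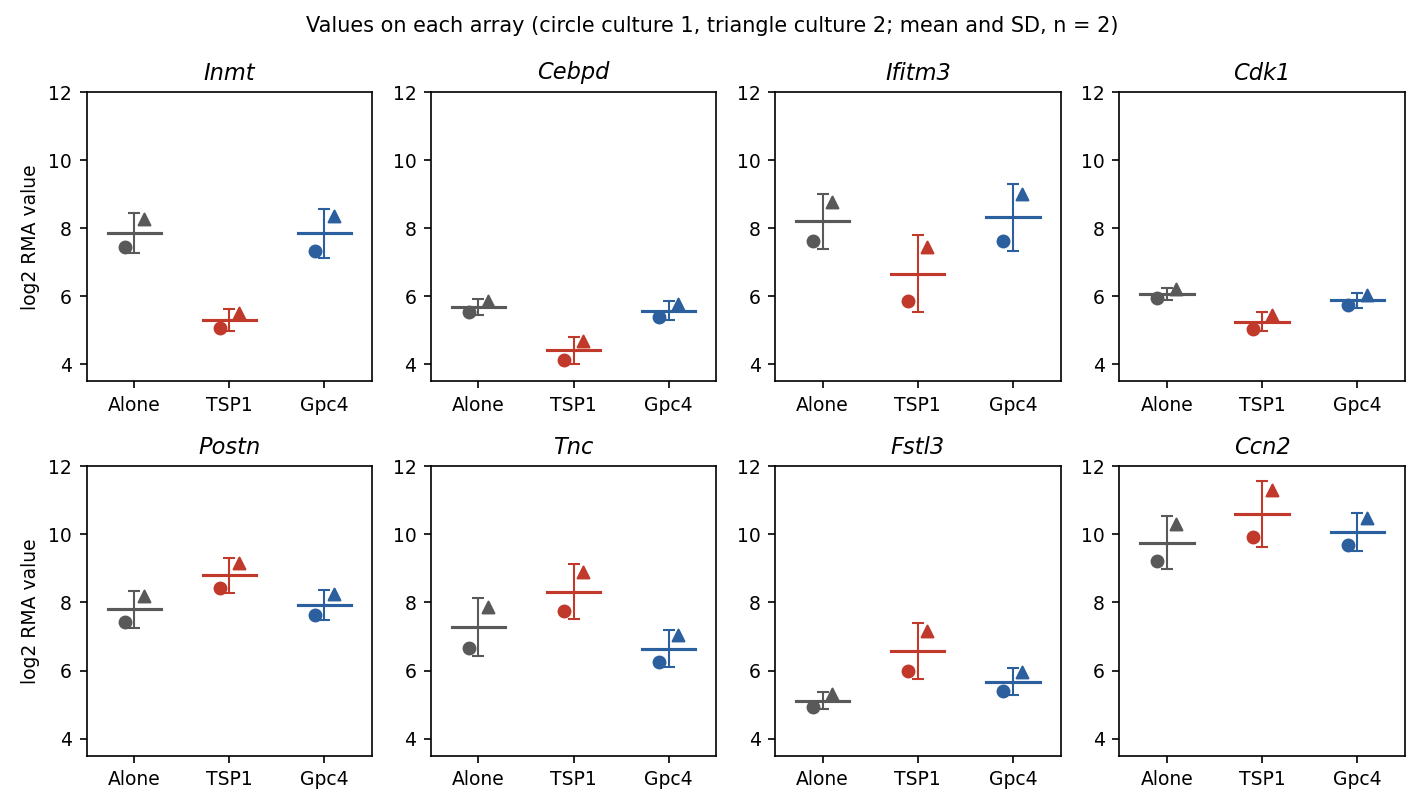
Log2 RMA values on each Alone, TSP1 and Gpc4 array for 8 genes, with circles for culture 1, triangles for culture 2, and a line and bar for the mean and SD of the 2 arrays. The upper row holds genes lower with TSP1 (Inmt, Cebpd, Ifitm3 and Cdk1) and the lower row genes higher with TSP1 (Postn, Tnc, Fstl3 and Ccn2), and for Tnc and Ccn2 the Alone value of culture 2 lies above the TSP1 value of culture 1.

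Promoters are printed for the genes that passed with the replicate block, since these had the smallest p in that fit. The sequences are from RefSeq on the build GRCr8 and run from 250 bases before to 50 after the gene start, on the gene's strand. Of the 30 named genes 20 had an entry, and Cebpd had none. Capitals mark matches, on either strand, to 6 motifs that were chosen with these results known. They were the SMAD motif (CAGAC), the TEAD motif (CATTCC), the AP-1 motif (TGANTCA), the C/EBP motif (TTGCNNAA), the STAT motif (TTCNNNGAA) and the interferon-stimulated response element (ISRE, here GAAA, any 2 bases, GAAA).
Postn, chr2:140677811-140678110, plus strand: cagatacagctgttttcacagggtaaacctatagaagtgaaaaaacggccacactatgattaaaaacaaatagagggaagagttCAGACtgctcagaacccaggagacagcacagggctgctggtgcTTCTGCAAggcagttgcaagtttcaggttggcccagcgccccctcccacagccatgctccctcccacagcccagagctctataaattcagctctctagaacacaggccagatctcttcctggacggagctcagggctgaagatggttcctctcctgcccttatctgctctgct
Inmt, chr4:85652706-85653005, minus strand: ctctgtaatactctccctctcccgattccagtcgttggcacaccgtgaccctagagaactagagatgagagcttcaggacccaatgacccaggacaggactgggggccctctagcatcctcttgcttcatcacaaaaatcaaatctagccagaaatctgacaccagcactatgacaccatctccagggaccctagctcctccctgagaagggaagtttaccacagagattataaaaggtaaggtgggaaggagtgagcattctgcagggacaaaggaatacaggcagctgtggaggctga
Ifitm3, chr1:205541709-205542008, minus strand: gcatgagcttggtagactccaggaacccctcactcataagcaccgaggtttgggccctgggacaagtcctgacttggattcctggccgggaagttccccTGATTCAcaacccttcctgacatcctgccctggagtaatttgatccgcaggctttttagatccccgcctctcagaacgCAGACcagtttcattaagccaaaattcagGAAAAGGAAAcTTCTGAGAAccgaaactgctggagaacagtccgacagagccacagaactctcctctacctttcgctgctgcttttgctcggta
The Postn window held 1 SMAD motif and 1 C/EBP motif, and the Inmt window held none of the 6. The Ifitm3 window held 1 SMAD motif and 1 match each to the AP-1 motif, the STAT motif and the ISRE. None of the capitals of different motifs overlap. Of 27457 rat promoters of this length 13720 held the SMAD motif, 13.9% the TEAD motif, 7.33% the AP-1 motif, 10.5% the C/EBP motif, 8.68% the STAT motif and 3.77% the ISRE. The SMAD motif was found in 9 of 10 named genes with higher values and 4 of 10 with lower values, and the ISRE in 0 and 3 (Slc1a3, Ifitm3 and Ifitm2). A match is a run of letters and does not show that a factor binds there.

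The other genes were named by a fixed rule. Per direction it took the 15 of smallest p among genes with a difference of at least 0.58, the same sign in both cultures and a mean of at least 6 in the higher group. It was met by 20 genes higher and 22 lower. Since p chose them, their differences are a description. Apart from those above, none passed with or without the block.

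Among the genes with higher values were several secreted and matrix proteins. Fstl3, a secreted follistatin-like antagonist of activin and myostatin, read 4.94 and 5.30 in Alone, 5.99 and 7.16 with TSP1, and 5.39 and 5.96 with Gpc4. A second, brighter Fstl3 probe set read 6.49 and 6.94 in Alone and 7.45 and 8.50 with TSP1. Both TSP1 arrays were above both Alone arrays on each probe set, with differences of 1.46 (SE 0.36, adjusted p = 0.10 from limma with the block) and 1.26. Tnc, the matrix glycoprotein tenascin C, read 6.67 and 7.88 in Alone, 7.74 and 8.88 with TSP1, and 6.26 and 7.03 with Gpc4. Its groups overlapped because culture 2 ran high, and within the cultures the difference was 1.07 and 1.00 (adjusted p = 0.099 from limma with the block). Ccn2, connective tissue growth factor, read 9.21 and 10.31 in Alone and 9.91 and 11.29 with TSP1, again overlapping, with differences of 0.70 and 0.98. Mfap4, a microfibril protein of elastic fibers, read 5.20 and 5.95 in Alone and 5.85 and 6.83 with TSP1. Prss23, a secreted serine protease, and Tnfrsf11b, the decoy receptor osteoprotegerin, were higher by 0.74 and 0.72. For Mfap4, Prss23 and Tnfrsf11b too, the Alone value of culture 2 lay above the TSP1 value of culture 1. Without TSP1 replicate 2 the differences were 0.26 for Prss23, 0.13 for Tnfrsf11b, 0.28 for Mfap4 and 0.15 for Ccn2, and without TSP1 replicate 1 they were 1.22, 1.31, 1.26 and 1.53. Tnc moved to 0.43 without Alone replicate 1 and to 1.64 without Alone replicate 2.

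On the probe sets named, a second set of genes with higher values differed mainly in culture 1. Slbp, which binds the stem-loop of histone mRNAs, read 5.67 and 6.46 in Alone, 7.12 and 6.96 with TSP1, and 6.42 and 6.90 with Gpc4. Klhl15, a substrate adaptor of a cullin ubiquitin ligase, read 5.55 and 6.16 in Alone, 6.56 and 6.34 with TSP1, and 6.30 and 6.39 with Gpc4. Pggt1b, a subunit of a protein prenyltransferase, differed by 1.07 in culture 1 and 0.11 in culture 2. The Alone array of culture 1 was the lowest of the 6 arrays for Slbp, Klhl15 and Pggt1b, and also for Klhl2, another cullin adaptor, and Rps6ka3, the kinase RSK2 downstream of ERK. Klhl2 read 7.36 and 7.70 in Alone, 8.26 and 8.08 with TSP1, and 8.38 and 8.49 with Gpc4, so its Gpc4 arrays were higher than its TSP1 arrays. Rps6ka3 read 5.94 and 6.30 in Alone and 6.90 and 6.63 with TSP1. Further probe sets of Slbp, Klhl2 and Rps6ka3 differed less, at most 0.25 in size, and 1 Slbp and 1 Rps6ka3 probe set had the opposite sign. That Rps6ka3 probe set was the brightest of the gene, at 9.71 and 9.89 in Alone and 9.76 and 9.75 with TSP1. A further Pggt1b probe set was higher by 0.08 in culture 1 and 0.30 in culture 2.

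Immune genes among those with higher values were Ccl2, a chemokine for monocytes, Il1b, the cytokine interleukin 1β, and Tmem119, a membrane protein of microglia and bone cells. Ccl2 read 7.71 and 8.23 in Alone and 8.27 and 9.13 with TSP1. Il1b read 6.12 and 5.44 in Alone and 7.01 and 5.81 with TSP1. Both were higher with TSP1 within each culture, but Il1b, like the microglia list, ran higher in culture 1 in Alone and with TSP1, and its groups overlapped. Its difference of 0.63 was 0.03 without TSP1 replicate 1 and 1.23 without TSP1 replicate 2. Tmem119 read 5.35 and 5.64 in Alone and 5.73 and 6.47 with TSP1. Tmem119 and Ccl2 ran higher in culture 2 under both conditions, unlike the microglia list.

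Among the genes with lower values were growth and cell cycle genes. Igf2, an insulin-like growth factor, read 6.94 and 7.64 in Alone, 5.73 and 6.27 with TSP1, and 6.77 and 6.16 with Gpc4. Both TSP1 arrays lay below both Alone arrays, but the Gpc4 array of culture 2 lay below the TSP1 array of that culture, and 3 other Igf2 probe sets, all below the array median, differed by at most 0.15. Cdk1, the kinase that drives entry into mitosis, read 5.94 and 6.20 in Alone, 5.05 and 5.45 with TSP1, and 5.73 and 6.03 with Gpc4. Its difference was -0.82 (SE 0.17), with -0.89 and -0.75 in the 2 cultures and an adjusted p = 0.084 from limma with the block. Pdgfra, the receptor for platelet-derived growth factor of fibroblasts and oligodendrocyte precursors, read 6.32 and 7.77 in Alone, 5.77 and 5.62 with TSP1, and 6.35 and 7.75 with Gpc4. The difference for Pdgfra was -0.55 in culture 1 and -2.15 in culture 2, the culture whose Alone array had the higher fibroblast sum.

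Cxcl1, a chemokine for neutrophils, read 7.87 and 8.62 in Alone, 6.87 and 7.12 with TSP1, and 7.83 and 9.22 with Gpc4. Both TSP1 arrays were the lowest of the 6, with a difference of -1.25 (SE 0.42, adjusted p = 0.40 from limma with the block). Crym, a thyroid hormone binding protein found in Müller glia, read 7.75 and 8.62 in Alone and 6.90 and 7.57 with TSP1, a difference of -0.95 (adjusted p = 0.065 with the block). A2m, the protease inhibitor α2-macroglobulin, Ctsc, the lysosomal protease cathepsin C, and Ptgr1, a reductase of prostaglandin breakdown, were lower by 0.59 to 0.67 on the log2 scale, with no overlap of Alone and TSP1. Strbp, an RNA-binding protein, was lower by 0.71 on the probe set named, with its Gpc4 array of culture 2 lower still at 7.07. Slc1a3, the glial glutamate transporter GLAST, was lower by 0.64, nearly all of it in culture 2 (-0.03 and -1.24). Brighter probe sets of Strbp and Slc1a3 had the opposite sign (10.12 and 9.92 in Alone against 10.19 and 10.08 with TSP1 for Strbp).

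The direct difference between TSP1 and Gpc4 does not take in the Alone values, though the Alone arrays enter the spread of its test. Over all probe sets 19 passed without the block (0.0612%) and 80 with it (0.258%). None of the 31 named probe sets passed without the block, and 7 did with it. The 31 were chosen by their difference between TSP1 and Alone, and the same TSP1 arrays enter here. The 7 are therefore a description and not separate support. Inmt was lower than with Gpc4 (difference -2.56, with -2.27 and -2.84 in the 2 cultures, adjusted p = 4.3e-04 from limma with the block). Tnc was higher than with Gpc4 by 1.67 (1.48 and 1.85, adjusted p = 0.0024 with the block), a larger difference than that against Alone because its Gpc4 values lay below Alone. Ifitm3 differed by -1.65 and the dimmer Cebpd probe set by -1.17 (adjusted p of 0.0024 and 0.0042 with the block). Postn differed by 0.87, Ctsc by -0.75 and Cdk1 by -0.63 (adjusted p of 0.013, 0.032 and 0.047 with the block). For Inmt, Ifitm3 and Cebpd the Gpc4 arrays lay near the Alone arrays of their culture, as the values above show.

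Gene lists of the pathway and of the cells were then described, using the brightest probe set of each gene over the 6 arrays. Of 600 listed genes 538 had a probe set. No member of a list passed without the block, and with the block the members that passed were Postn, Inmt and Ifitm3. Over all 14217 genes the median difference was -0.01, 312 genes were higher (2.19%) and 280 lower (1.97%) at an unadjusted p under 0.05, and 3321 were higher (23.4%) and 3750 lower (26.4%) in both cultures. Both TSP1 arrays lay above both Alone arrays for 1953 genes (13.7%) and below both for 2334 (16.4%). These shares are the background for the counts that follow, which are descriptions without a test.

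**Figure D4:**
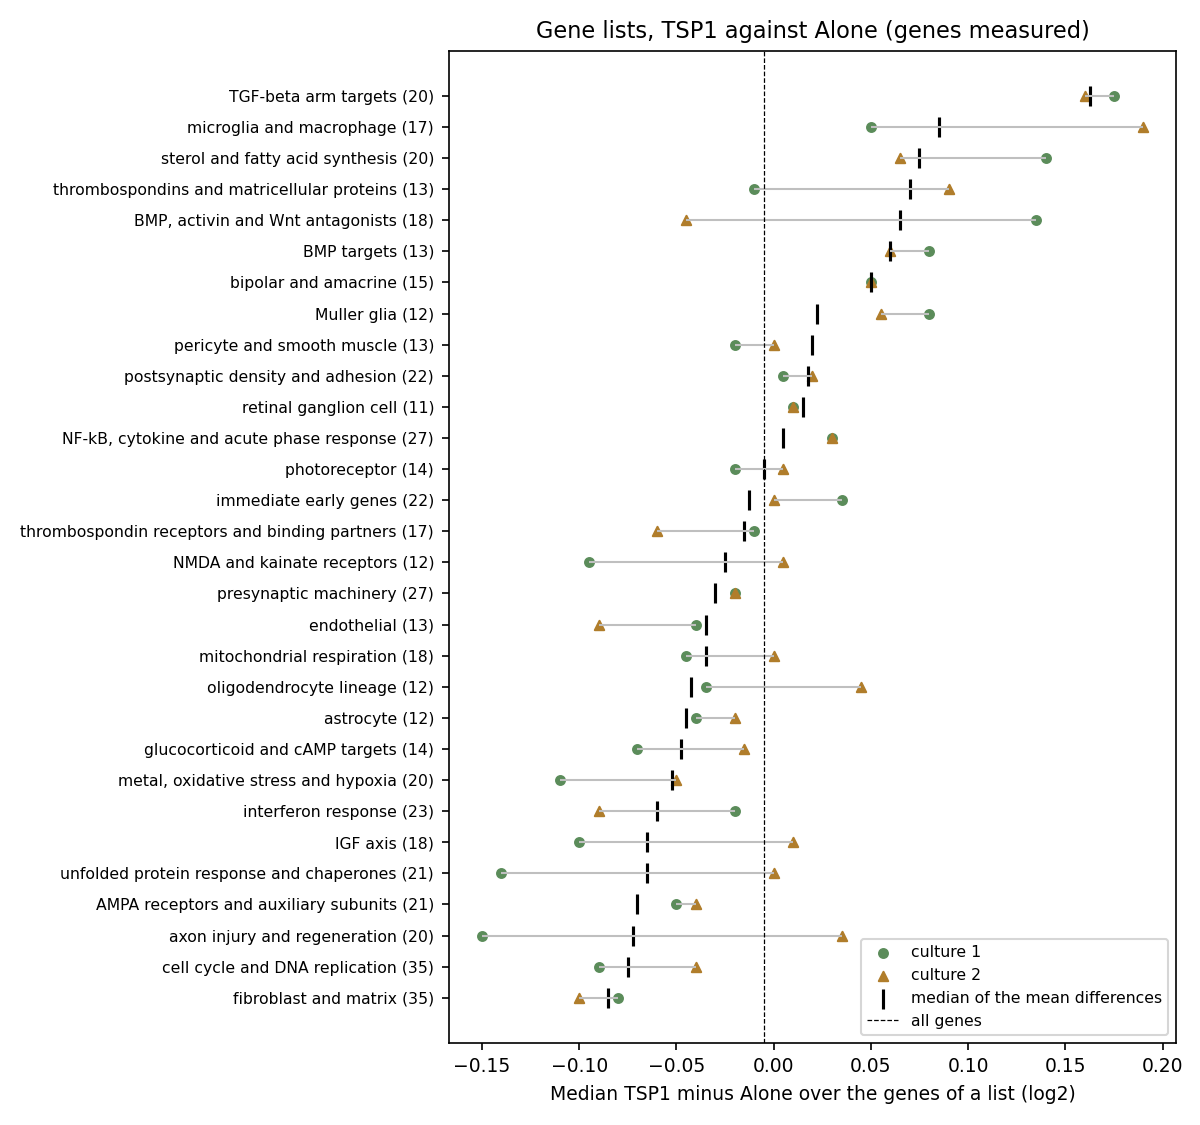
Median of TSP1 minus Alone over the measured genes of 30 lists (x axis, log2; the number of genes in parentheses) in culture 1 (green circles), in culture 2 (brown triangles) and for the mean of both (black bars), with the median of all genes as a dashed line. All medians lie between -0.15 and 0.19, with TGF-beta targets highest and fibroblast and matrix genes lowest in the mean of both cultures.

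The receptors and binding partners of TSP1 were expressed and differed little. Cacna2d1, which encodes α2δ1, read 11.49 and 11.44 in Alone and 11.39 and 11.28 with TSP1. Cd47, the integrin-associated receptor, read 10.86 and 10.91 in Alone and 10.83 and 10.76 with TSP1, and Lrp1, an endocytic receptor that clears TSP1, 9.32 and 9.46 in Alone and 9.31 and 9.21 with TSP1. The TSP1 values of Cacna2d1 and Cd47 lay just below the Alone values, by 0.13 and 0.09 on average. Cd36, a scavenger receptor, lay far below the array median on all 4 arrays, between 3.07 and 3.49. Of 17 measured genes 8 were lower (47.1%, against 26.4% of all genes) and 2 higher (11.8%, against 23.4%) in both cultures. The median was -0.02, with differences from -0.31 for Sdc4, a heparan sulfate proteoglycan, to 0.25 for Itgav, the integrin αV chain that helps activate latent TGF-beta.

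Among other thrombospondins, Thbs2, Thbs3 and Thbs4 had differences from -0.25 to -0.14, and Thbs1 was not analysed here. Of 13 thrombospondins and matricellular proteins, secreted matrix proteins that signal to cells, 5 were higher and 4 lower in both cultures, with Tnc, Ccn2 and Spp1, osteopontin (8.51 and 8.0 in Alone, 8.87 and 8.42 with TSP1), at the top. Sparc, another of them, differed by 0.07, but read 9.53 and 10.47 in Alone, a larger gap between cultures than between conditions.

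TGF-beta signals through SMAD proteins to genes of matrix and adhesion. Of 20 measured targets and components 12 were higher in both cultures (60.0%, against 23.4% of all genes) and 4 lower, with a median of 0.16. That median was 0.01 without TSP1 replicate 2, 0.09 without Alone replicate 1, 0.21 without TSP1 replicate 1 and 0.26 without Alone replicate 2. Within the cultures the median was 0.175 and 0.16. At an unadjusted p under 0.05, 4 were higher (of all genes 2.19% were) and none lower. Beside Postn these were Pmepa1, a feedback inhibitor of SMAD signaling, at 10.32 and 10.16 in Alone and 10.64 and 10.79 with TSP1, Ltbp2, a matrix protein related to latent TGF-beta binding proteins, at 6.04 and 6.04 in Alone and 6.52 and 6.35 with TSP1, and Skil, a SMAD corepressor, at 10.85 and 10.89 in Alone and 11.15 and 11.04 with TSP1. For these 3 genes both TSP1 arrays lay above both Alone arrays, with differences of 0.48, 0.40 and 0.23. Other targets did not share the direction: Timp1, a metalloproteinase inhibitor, differed by -0.02, and Col3a1, a fibrillar collagen, by -0.37. The list shares Postn, Ccn2, Fn1, Tagln and collagens with others here. Its summed linear value was 12000 and 13470 in Alone and 13900 and 17130 with TSP1, and 13550 and 14850 with Gpc4.

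**Figure D5:**
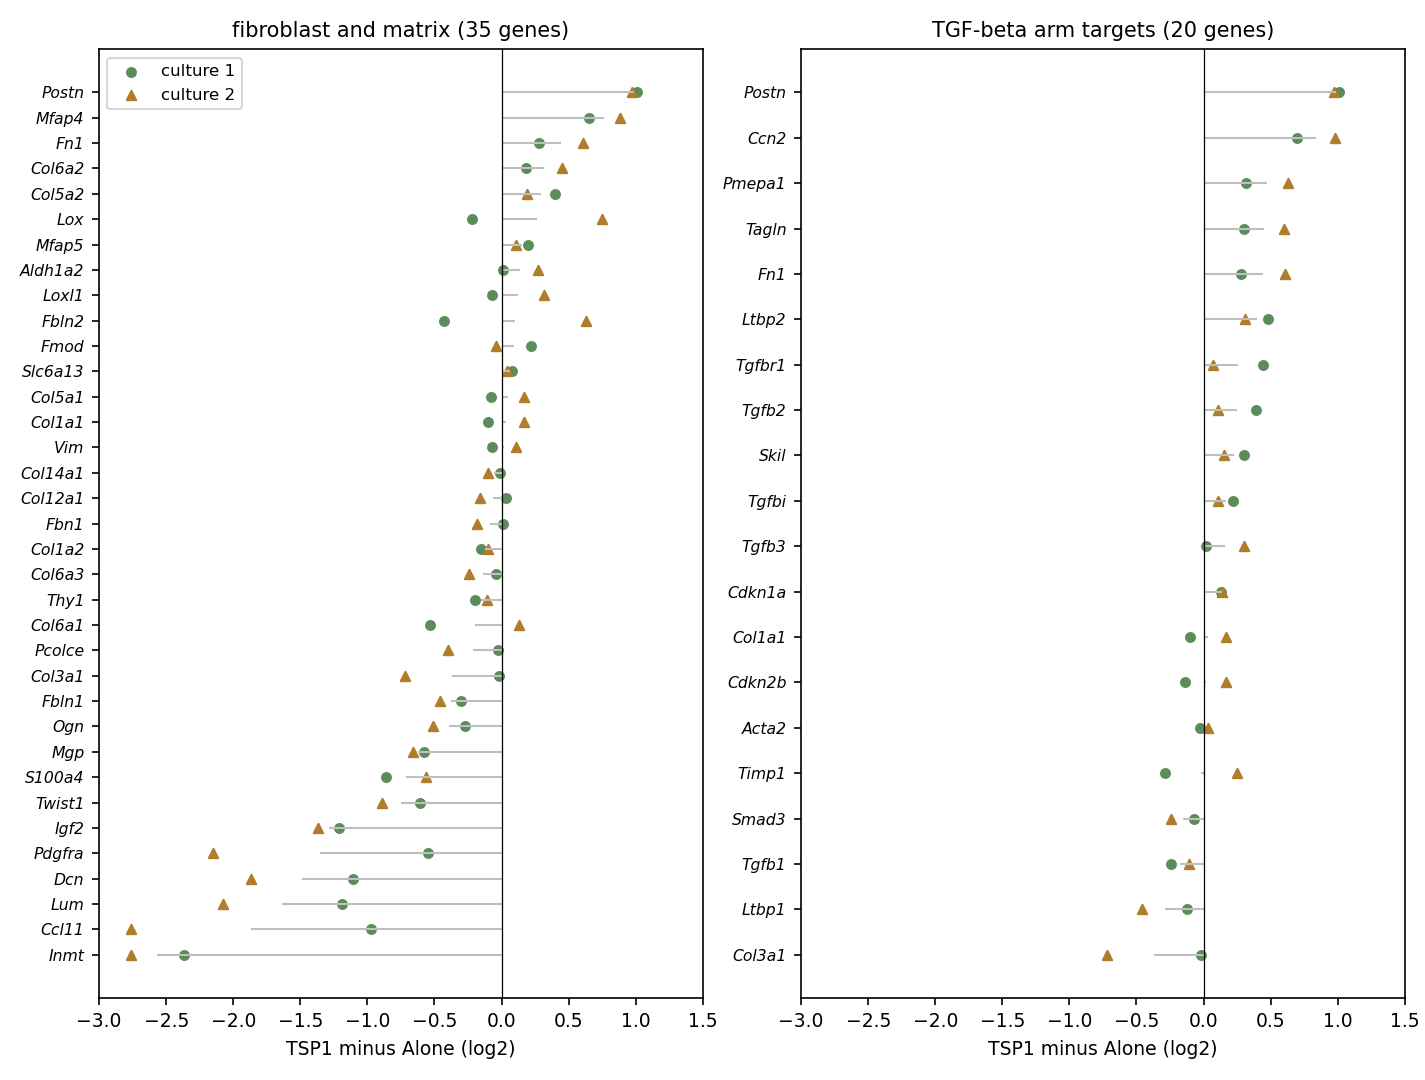
TSP1 minus Alone on the log2 scale (x axis) in culture 1 (green circles) and culture 2 (brown triangles) for the fibroblast and matrix genes (left, 35) and the TGF-beta targets and components (right, 20), ordered by the mean difference (grey lines). The fibroblast genes spread from -2.57 for Inmt to 0.99 for Postn, and most TGF-beta genes lie to the right of 0.

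BMP targets, of a related SMAD pathway, had a median of 0.06. The Id genes, inhibitors of basic helix-loop-helix factors, differed by -0.36 (Id3), -0.08 (Id1) and 0.06 (Id2), and Smad7, the inhibitory SMAD that answers to both pathways, read 6.01 and 6.37 in Alone and 6.66 and 6.59 with TSP1. Secreted antagonists of BMP, activin and Wnt went both ways. At an unadjusted p under 0.05, 5 of 18 were higher (27.8%, against 2.19%) and 1 was lower. The 5 were Fstl3, Grem1 (gremlin, 4.17 and 4.51 in Alone, 4.68 and 5.67 with TSP1), Nog (noggin, 4.90 and 4.91 in Alone, 5.76 and 5.30 with TSP1), Sfrp2 (7.05 and 7.18 in Alone, 7.43 and 7.43 with TSP1) and Sfrp4. All TSP1 values of Grem1 and Nog lay below the array median, so their level is uncertain. The 1 lower was Frzb, a Wnt antagonist, at 5.46 and 5.75 in Alone and 4.94 and 5.01 with TSP1.

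Fibroblast and matrix genes were the list that spread most. Of 35 measured, 17 were lower (48.6%, against 26.4% of all genes) and 8 higher in both cultures, with a median of -0.09. Leaving out 1 array gave -0.36 without TSP1 replicate 2, -0.24 without Alone replicate 1, -0.01 without TSP1 replicate 1 and 0.07 without Alone replicate 2. Within the cultures the median was -0.08 and -0.1. At an unadjusted p under 0.05, 6 were lower (17.1%, against 1.97%) and 3 higher (8.57%). Those lower were Inmt, Pdgfra and Igf2, as above, with Ccl11, the eosinophil chemokine eotaxin, Twist1, a mesenchymal transcription factor, and Fbln1, fibulin 1. Ccl11 read 5.17 and 6.65 in Alone and 4.20 and 3.89 with TSP1. The proteoglycans Dcn, decorin, at 5.59 and 7.75 in Alone and 4.48 and 5.88 with TSP1, and Lum, lumican, at 4.68 and 6.95 in Alone and 3.49 and 4.87 with TSP1, were lower in each culture. Their groups overlapped, since culture 2 was higher than culture 1 by more than 2 on the log2 scale in Alone. Mgp, which limits matrix calcification, was, after Thy1, the brightest of the genes lower in both cultures, at 9.94 and 11.10 in Alone and 9.36 and 10.44 with TSP1. Collagen I differed little: Col1a1 read 6.61 and 7.10 in Alone and 6.51 and 7.27 with TSP1, and Col1a2 differed by -0.13. Higher at an unadjusted p under 0.05 were Postn, Mfap4 and Col6a2, and Fn1, fibronectin, read 9.15 and 9.64 in Alone and 9.43 and 10.25 with TSP1. Genes of this list therefore differed in both directions on the same arrays, while its summed value was lower with TSP1 in each culture. In that linear sum bright genes such as Thy1 and Mgp weigh most, so it does not describe the list gene by gene. The part of cell number in these differences was not tested.

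Inflammatory genes also went both ways. Of 27 genes of NF-kB, cytokine and acute phase responses 4 were lower at an unadjusted p under 0.05 (14.8%) and 1 was higher (3.70%). The lower ones were Ccl11, Cxcl1, Cebpd and Icam1, an adhesion molecule for leukocytes, at 6.14 and 6.45 in Alone and 5.68 and 5.84 with TSP1. The higher one was Nfkbiz, a nuclear modulator of NF-kB, at 7.98 and 8.07 in Alone and 8.35 and 8.38 with TSP1. Ccl7, a monocyte chemokine like Ccl2, was higher by 0.51 and 0.61 in the 2 cultures. Within the chemokines, Cxcl1 and Ccl11 were thus lower and Ccl2 and Ccl7 higher on the same arrays. Lcn2, an acute phase protein that binds iron carriers, read 9.06 and 9.29 in Alone and 8.74 and 9.78 with TSP1, of opposite sign in the cultures.

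The interferon list differed at the Ifitm genes alone at an unadjusted p under 0.05. Of 23 genes Ifitm1 and Ifitm3 were lower by that measure (8.70%, against 1.97%) and none higher. Isg15, a ubiquitin-like interferon product, read 5.75 and 5.67 in Alone and 5.72 and 5.48 with TSP1. Ifit2, an RNA-binding interferon product, read 7.60 and 7.91 in Alone and 7.69 and 7.68 with TSP1, and Stat2, a transducer of interferon signals, differed by 0.08. The list median was -0.06.

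Of 35 cell cycle genes 17 were lower (48.6%) and 5 higher in both cultures, with a median of -0.08. Beside Cdk1, Mcm7, a subunit of the replicative helicase, read 7.10 and 7.12 in Alone and 6.64 and 6.84 with TSP1, and Ccnb2, a mitotic cyclin, 5.82 and 6.02 in Alone and 5.71 and 5.63 with TSP1. Mki67 and Top2a, markers of dividing cells, lay far below the array median on all 4 arrays. Ccnd1, cyclin D1, read 8.88 and 9.60 in Alone and 8.21 and 9.16 with TSP1, so its groups overlapped. The largest difference of the list was upward, at 0.98 for Slbp, described above. In the IGF axis Igf2 and H19, an imprinted RNA next to it, were lower at an unadjusted p under 0.05, H19 by 0.62 in culture 1 and 0.15 in culture 2, while Igf1 and Igf1r differed by -0.10 and -0.11.

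Synaptic genes differed little. Of 27 presynaptic genes 10 were lower (37%, against 26.4% of all genes) and 7 higher (25.9%, against 23.4%) in both cultures, with a median of -0.03. Slc17a6, the vesicular glutamate transporter of RGCs, read 13.22 and 13.22 in Alone and 13.26 and 13.21 with TSP1, and Snap25, a SNARE of vesicle fusion, 12.99 and 12.97 in Alone and 13.06 and 12.95 with TSP1. These are among the brightest synaptic probe sets, and their groups overlapped. Syt1, a calcium sensor of release, was higher by 0.38, on a probe set below the array median on all 4 arrays. Of 22 genes of the postsynaptic density and synaptic adhesion none had an unadjusted p under 0.05. Dlg4, the scaffold PSD95, read 9.42 and 9.52 in Alone and 9.52 and 9.48 with TSP1, and Shank1, a larger scaffold, 10.78 and 10.69 in Alone and 10.57 and 10.42 with TSP1.

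AMPAR genes had a median of -0.07, with 10 of 21 lower in both cultures (47.6%, against 26.4%) and 2 higher. The main subunit Gria2 read 10.60 and 10.66 in Alone and 10.56 and 10.52 with TSP1, and Gria1 7.16 and 7.33 in Alone and 7.11 and 7.29 with TSP1. Cacng3, an auxiliary TARP subunit, had the largest difference of the list, at 7.62 and 7.43 in Alone and 7.06 and 7.35 with TSP1. Cacng2, stargazin, read 9.16 and 8.95 in Alone and 8.82 and 8.84 with TSP1. Both TARPs lay lower on the TSP1 arrays without overlap, by 0.32 and 0.23, and neither passed. Of all genes, 16.4% lay lower without overlap. Nptx1, the AMPAR-clustering pentraxin NP1, read 11.32 and 11.29 in Alone and 11.40 and 11.05 with TSP1, a difference of opposite sign in the 2 cultures. NMDA and kainate receptor genes had a median of -0.03, with Grin1, the obligate NMDA subunit, at 9.41 and 9.27 in Alone and 9.21 and 9.24 with TSP1.

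Immediate early genes, which neurons switch on with activity, had a median of -0.01. Fos read 10.75 and 10.98 in Alone and 11.23 and 11.01 with TSP1, while Arc and Egr1 differed by -0.03 and -0.05. Bdnf, an activity-dependent growth factor, read 11.17 and 11.22 in Alone and 11.34 and 11.34 with TSP1. Genes of axon injury and regeneration, many of them bright in these cultured neurons, included Sprr1a (12.05 and 11.80 in Alone, 11.73 and 11.84 with TSP1) and Gap43 (13.67 and 13.63 in Alone, 13.69 and 13.64 with TSP1). None of these 20 had an unadjusted p under 0.05, and their median was -0.15 in culture 1 and 0.04 in culture 2.

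Lists of other cell types gave few differences besides the fibroblast genes. Of 17 microglia and macrophage genes 7 were higher (41.2%, against 23.4%) and 0 lower in both cultures, with a median of 0.09. The median was 0.05 in culture 1 and 0.19 in culture 2. It was -0.17 without Alone replicate 2 and -0.19 without TSP1 replicate 1, and 0.31 and 0.29 without Alone replicate 1 and TSP1 replicate 2. Leaving out 1 array sets unequal shares of the 2 cultures against each other, and this list differed between cultures. Ctss, the lysosomal protease cathepsin S, read 6.51 and 5.79 in Alone and 7.86 and 6.14 with TSP1, and Gpr84, a receptor for medium-chain fatty acids on myeloid cells, 4.42 and 4.18 in Alone and 4.98 and 4.85 with TSP1. All Gpr84 values lay below the array median, and the values of C1qa, a complement subunit (6.60 and 5.41 in Alone, 6.84 and 5.60 with TSP1), differed more between cultures than between conditions. Il1b and Ccl2 are also made by these cells, and the part of cell number was not tested. Endothelial genes had a median of -0.04, with Emcn, endomucin, lower by 0.74 at values below the array median. Müller glia genes had a median of 0.02, with Crym lower and Glul, glutamine synthetase, at 9.74 and 10.03 in Alone and 10.16 and 10.13 with TSP1. The medians of the astrocyte, pericyte, oligodendrocyte lineage, photoreceptor, and bipolar and amacrine lists lay between -0.05 and 0.05.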

How the data were processed

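Samples were grouped by their labels into Alone, TSP1 and Gpc4, with 2 Affymetrix arrays each. Per the labels the scans went through Affymetrix Expression Console, with no version stated, and the authors deposited log2 RMA values rounded to 2 decimals. They were used as deposited, with no filter. Genes were named from GEO's platform annotation where a probe set had 1 symbol (20826, for 14217 genes), and not where it had several (436) or none (9780).

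TSP1 was compared with Alone by limma 3.58.1 under R 4.3.3 (eBayes after lmFit, 1 mean per group, 6 arrays, 3 residual degrees of freedom, 2 with the block), which was tested on simulated data. Replicate numbers mark 2 separate cultures per the methods, and the deviations of same-numbered arrays correlated at 0.29, 0.35 and 0.37 over probe sets in the 3 pairs of conditions, so the block is given beside the results. TSP1 and Gpc4 share the Alone arrays. The members, gene lists, motifs and naming rule were chosen with earlier results of these data known. The rule named, per direction, the 15 genes of smallest p with a log2 difference of at least 0.58, 1 sign in both cultures and a mean of at least 6 in the higher group, together with every probe set that passed with or without the block and the list members. Promoters came from RefSeq (GRCr8). Alternatives were filters on dim probe sets, median centring, quantile normalization, 4 arrays only, a trended variance, the methods' t-test, other thresholds, means over probe sets and leaving out each array. Python 3.11.15 with matplotlib 3.10.9 drew the figures. Only the arrays were analysed here. One gene list is not reported here.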

Additional observations from a re-analysis of the deposited data

How the results depend on the processing

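The count of 0 probe sets for TSP1 against Alone by limma stayed 0 with the 4 arrays alone (with and without the replicate block), median centring, quantile normalization, a mean of at least 6, a mean above the median, a trended variance, an adjusted p under 0.10 and the methods' t-test after Benjamini-Hochberg adjustment, which was undefined at 24 probe sets. It was 4 with the replicate block and 8 with the replicate block after leaving out probe sets with a mean under 6. The 8 were Postn, Tnc and Fstl3 higher and Inmt, Ifitm3, Crym, Ctsc and S100a6 lower, the last a calcium-binding protein at -0.87, with Fstl3 and Ctsc on other probe sets than those named by the rule. Leaving out 1 array gave 0 to 1, where the 1, without Alone replicate 1, was Myl11, a myosin light chain (-2.09, adjusted p = 0.044 from limma). With no adjustment it was 1367, or 50 with 1.5-fold, and by the methods' t-test 1280, or 6 with 1.5-fold (Inmt, Cebpd, Gpr84 and 3 unnamed probe sets). The cause of these moves was not tested. No difference of a named probe set changed sign. The differences of the 31 named probe sets were recomputed 279 times, keeping sign and side of the threshold in 275. The other 4 passed with the replicate block. Of the 31 differences from Gpc4, 7 passed with it, so the block changed no other call. The naming rule asked for size and 1 sign in both cultures, and no named probe set passed without the block. The 275 therefore does not measure how stable the sizes were. As means over all probe sets of the gene, some differences shrank: Slc1a3 from -0.64 to -0.14, Igf2 from -1.29 to -0.40 and Klhl2 from 0.64 to 0.34. The difference of Ctsc grew from -0.63 to -0.70. Leaving out 1 array moved 11 to 13 of the named differences by over 1.5 times. Those of Postn and Ifitm3 were among them. The differences of Inmt, Cebpd, Klhl2, Rps6ka3, Cdk1, Igf2, Strbp and Cxcl1 did not move by that much. List medians moved by more than the spread between cultures, the SD of the 2 culture medians, in 129 of 310 recomputations. Where these were equal, as for presynaptic genes (-0.02 and -0.02), that spread was 0 and every recomputation counted as moved. The 129 therefore does not measure how stable the medians were. Some changed sign when 1 array was left out, which sets unequal shares of the cultures against each other. Among them were the microglia list (0.09 to -0.17 without Alone replicate 2), the fibroblast list (-0.09 to 0.07 without Alone replicate 2) and the matricellular list (0.07 to -0.09 without TSP1 replicate 2). The median size of a difference was 0.10 and stayed between 0.095 and 0.105. Quantile normalization moved array medians by at most 0.01. Signals below the array median limit differences such as those of Inmt, Cebpd, Ifitm3, Ifitm1, Igf2, Cdk1, Pdgfra and Fstl3.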

Other observations

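Genes of sterol and fatty acid synthesis, which supply membrane lipids, were higher in both cultures for 10 of 20 (23.4% of all genes were) and lower for 1, with a median of 0.08 on the log2 scale. Msmo1, a sterol oxidase of cholesterol synthesis, read 10.90 and 10.85 in Alone and 11.08 and 11.10 with TSP1, and Idi1, an isomerase of the isoprenoid path, 11.85 and 11.92 in Alone and 12.08 and 12.03 with TSP1. Both TSP1 arrays lay above both Alone arrays for each gene, and neither passed. The differences were 0.22 and 0.17, and Srebf2, the transcription factor of the pathway, differed by -0.05.

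The 21 genes of the unfolded protein response and chaperones had a median of -0.14 in culture 1 and of 0 in culture 2. Pdia4, a disulfide isomerase, read 9.42 and 9.57 in Alone and 9.16 and 9.26 with TSP1, Hsp90b1, the chaperone GRP94, 11.72 and 11.69 in Alone and 11.44 and 11.49 with TSP1, and Hspa5, the chaperone BiP, 11.65 and 11.68 in Alone and 11.46 and 11.51 with TSP1. For each of the 3 both TSP1 arrays were below both Alone arrays, and none passed. Of the list 9 genes were lower (42.9%, against 26.4% of all genes) and 4 higher (19%, against 23.4%) in both cultures. Hspa1a, a heat shock protein of the cytosol, was higher by 0.43. Glucocorticoid and cAMP targets had a median of -0.05, with Cebpd lowest and Mt2A, a metallothionein, at 8.10 and 8.36 in Alone and 7.90 and 7.90 with TSP1. Metal, oxidative stress and hypoxia genes had a median of -0.05 and mitochondrial respiration genes one of -0.04, with no member of either past the threshold.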
